A study of Arabidopsis thaliana with 36 samples.

Results

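The heavy metal ATPases of Arabidopsis thaliana are a family of 8 metal pumps, HMA1 to HMA5 and 3 members better known as PAA1 (HMA6), RAN1 (HMA7) and PAA2 (HMA8). Their 8 genes were taken by gene identifier from a count table of 28775 genes. All 8 passed the filter on low counts and were tested with 21692 genes in all. In roots of the opt3-2 mutant HMA3, HMA1 and HMA4 transcripts were higher than in the wild type and HMA2 was lower, while in leaves the changes were small.

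Transcripts were measured by RNA sequencing in 4 groups of 3 biological replicates, each sequenced in 3 runs that were summed here. The groups were Columbia-0 root, opt3-2 root, Columbia-0 leaf and opt3-2 leaf, where Columbia-0 is the wild type and opt3-2 a mutant of OPT3. Every plant grew for 11 days on plates and then for 22 days in hydroponics with 16 h light and 8 h dark, and 3 to 4 plants were pooled for each RNA. The labels give every sample the treatment replete media, while the protocol text attached to every sample describes 20 µM CdCl2 for 72 h before harvest. Which of these applied was not settled, both genotypes and organs carry the same wording, and cadmium is a substrate of several of the pumps.

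The family uses ATP to move transition metals across membranes. HMA2 and HMA4 sit in the plasma membrane of vascular cells and load zinc, and with it cadmium, into the xylem for the shoot. HMA3 moves the same metals into the vacuole, and the Columbia-0 accession is known to carry a truncated HMA3. HMA5 exports copper in roots, and RAN1 supplies copper to the ethylene receptors. PAA1 carries copper across the chloroplast envelope, PAA2 carries it on into the thylakoid lumen for plastocyanin, and HMA1 is a further pump of the chloroplast envelope. OPT3 sits in the companion cells of the phloem and loads iron and copper there, and opt3-2 is known as a partial loss of OPT3 in which roots act as if the shoot lacked iron.

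The genes code for a short motif inside the membrane that the metal passes, a cysteine, a proline and a cysteine in most members and a serine, a proline and a cysteine in HMA1. The coding bases of this motif are shown in capitals within 15 bases on either side, because they set HMA1 apart from the other members. Their match between HMA3 and HMA4 is no measure of kinship, since HMA2 and RAN1 match there as well. Sequences are RefSeq's TAIR10.1, 5′ to 3′ on the coding strand.
HMA2: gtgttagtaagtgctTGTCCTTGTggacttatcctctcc
HMA3: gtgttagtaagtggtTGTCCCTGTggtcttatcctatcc
HMA4: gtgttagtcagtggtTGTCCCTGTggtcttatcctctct
HMA1: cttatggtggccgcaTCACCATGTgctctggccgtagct
HMA5: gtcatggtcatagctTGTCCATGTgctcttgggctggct
RAN1: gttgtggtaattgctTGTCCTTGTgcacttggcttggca
PAA1: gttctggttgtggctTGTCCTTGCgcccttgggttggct
PAA2: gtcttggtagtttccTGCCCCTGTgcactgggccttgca

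The 9 capital bases were TGTCCCTGT in both HMA3 and HMA4, TGTCCTTGT in both HMA2 and RAN1, and different in each of the other members. HMA1 alone had TCACCATGT. The stretches lie at chr4:14722316-14722354 for HMA2, chr4:14731887-14731925 for HMA3, chr2:8283538-8283576 for HMA4, chr4:17544530-17544568 for HMA1, chr1:23529675-23529713 for HMA5 and chr5:18077355-18077393 for RAN1, each within an exon. Those of PAA1 (chr4:16123032-16123326) and PAA2 (chr5:7246363-7246602) are each interrupted by an intron, so the letters printed are the spliced bases. HMA1, HMA2, HMA3 and RAN1 lie on the minus strand and the others on the plus strand. Of all 36-base words of the 8 coding sequences, 0 were shared between members, so reads of at least that length without mismatches would not fall in more than 1 member's coding sequence. No source used here gives the read length.

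HMA2 (AT4G30110, chr4:14720062-14725311) and HMA3 (AT4G30120, chr4:14730215-14733628) are neighbours on the same strand, 4903 bp apart. HMA4 is AT2G19110 at chr2:8278789-8286561. HMA1 is AT4G37270 at chr4:17541771-17546546, and its exons share 29 bp with those of MYB73 on the other strand. HMA5 is AT1G63440 at chr1:23527570-23531226, PAA1 is AT4G33520 at chr4:16118830-16126151 and RAN1 is AT5G44790 at chr5:18075562-18080160. PAA2 is AT5G21930 at chr5:7243002-7249170, and 157 bp of its exons, 4.67% of their length, also belong to AT5G21940 on the other strand. Whether the libraries kept strand is not given, so reads from such stretches cannot be told apart, and values of HMA1 and PAA2 are uncertain. The share of exon length does not bound this, since it also depends on the transcript level of the other gene.

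Each replicate held 23981444 to 37685493 counted reads, with opt3-2 leaves the deepest group at 36705595 to 37685493. OPT3 transcript, the check on the genotype labels, was 102 ± 23.8 CPM (counts scaled to 1000000 reads of the library; SD, n = 3) in wild-type leaves against 19.4 ± 1.40 CPM in mutant leaves, and 7.51 ± 0.798 against 5.64 ± 0.774 CPM in roots. The leaf difference passed the test (log2 fold change -2.40, adjusted p = 2.66e-06, edgeR) and the root difference did not (-0.41, adjusted p = 0.125). The organ labels were met by the markers, since 11 photosynthesis genes summed to 229.5 to 541 CPM in roots and to 74947 to 92469 CPM in leaves. Runs of a replicate differed little more than counting noise gives, with chi-square per degree of freedom of 1.02 to 1.07. Replicates of a group differed by more, at 3.13 to 73.5. Run numbers in the table's headings form different sets in Columbia-0 (runs 2 to 4 or 5 to 7) and in opt3-2 (1 to 3), so run set and genotype cannot be told apart.

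In roots, 4 of the 8 members changed between genotypes, 3 higher and 1 lower, where 15.6% of all genes tested were called (8.28% higher and 7.28% lower). Their log2 fold changes ran from -1.01 to 1.87, with a median of 0.05 beside -0.000593 over all genes. In 5 of the 8 the replicates of the genotypes did not overlap, as in 31.5% of all genes. In bulk RNA, a change in the number of cells of a type and a change in transcript per cell cannot be told apart. The labels name biological replicates without saying whether they were grown separately. Each p-value sets a difference between groups against the spread of these samples, which may not be that of separately grown plants.

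HMA3 codes for the vacuolar zinc and cadmium pump, which Columbia-0 is known to carry in truncated form. It had the largest root change of the 8 members, and whether its transcript gave a working pump was not tested. Columbia-0 roots had 14.6, 11.7 and 12.03 CPM, and opt3-2 roots had 40.9, 53.0 and 46.4 CPM. Every mutant root was far above every wild-type root. The transcript was 3.66-fold higher (log2 fold change 1.87, SE 0.14, adjusted p = 4.72e-06, edgeR).

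HMA2, a xylem-loading zinc pump, moved the other way. Columbia-0 roots had 35.4, 28.5 and 29.6 CPM, and opt3-2 roots had 14.7, 17.0 and 14.8 CPM. The groups stayed apart, with the highest mutant value well under the lowest wild-type value. The transcript was 2.01-fold lower (log2 fold change -1.01, SE 0.10, adjusted p = 4.77e-05, edgeR).

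HMA4, which acts beside HMA2 in loading zinc into the xylem, did not follow it. Its level was 170.5, 165 and 179.9 CPM in Columbia-0 roots and 221, 245 and 229 CPM in opt3-2 roots. All mutant roots were above all wild-type roots, by a modest 1.35-fold (log2 fold change 0.43, SE 0.08, adjusted p = 0.00267, edgeR). With levels taken per kilobase of exon, HMA2 made up 21.6%, 18.6% and 17.9% of HMA2 plus HMA4 in wild-type roots and 8.11%, 8.45% and 7.91% in mutant roots. The share fell by 11.2 percentage points with no overlap of replicates. The exact two-sided permutation test, made without pairing replicates, gave p = 0.1, the smallest that 3 against 3 allows in that form. In leaves the share was 77.1% ± 2.98 in Columbia-0 and 72.5% ± 1.76 in opt3-2 (SD, n = 3), overlapping between genotypes (exact permutation p = 0.2).

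**Figure D1:**
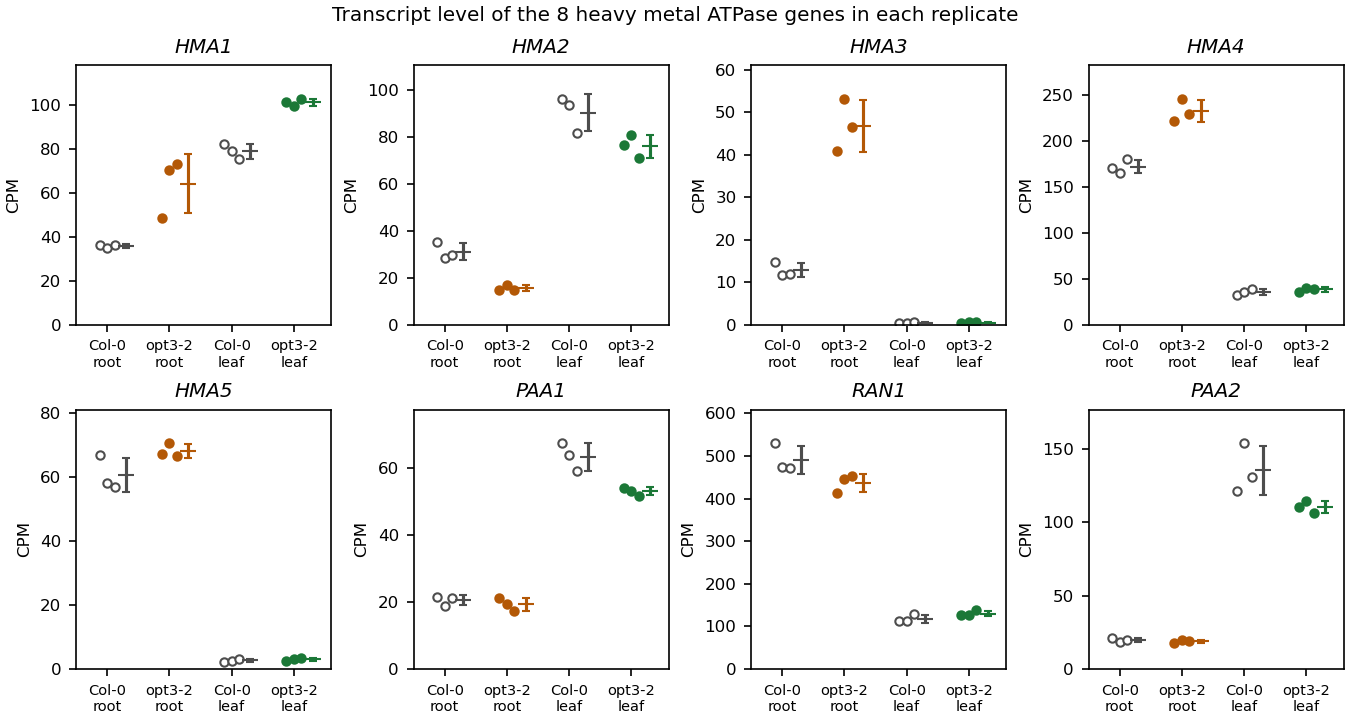
Transcript level in CPM of each family member (1 panel each, axis from 0) in the 3 replicates of each group, with the mean and SD beside them; open points are Columbia-0 and filled points opt3-2. HMA3 in roots rises from at most 14.6 CPM in Columbia-0 to at least 40.9 CPM in opt3-2, HMA2 falls from at least 28.5 to at most 17.0 CPM, and HMA3 and HMA5 lie near 0 in all leaves.

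HMA1, the chloroplast envelope pump, was also higher in mutant roots. Columbia-0 roots had 36.5, 35.0 and 36.2 CPM, and opt3-2 roots had 48.7, 70.4 and 73.4 CPM. The wild-type values were tight, the mutant values were spread, and replicate 1 of opt3-2 was the lowest of them yet above every wild-type root. The rise was 1.79-fold (log2 fold change 0.84, SE 0.12, adjusted p = 7.59e-04, edgeR). MYB73, which shares bases with HMA1, had a root log2 fold change of 0.10 (SE 0.27, adjusted p = 0.843).

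These 4 root calls kept their direction in all 25 alternative settings. HMA2 and HMA3 were called in all 25, and HMA1 and HMA4 in 24, with adjusted p of 2.04e-08 to 0.0837 and 2.96e-07 to 0.146. Against the 1 Columbia-0 root replicate with runs 2 to 4, replicate 3, the log2 fold changes were -0.93 for HMA2, 1.959 for HMA3, 0.82 for HMA1 (adjusted p = 0.0837) and 0.37 for HMA4 (adjusted p = 0.146). Against the 2 replicates with runs 5 to 7 they were -1.02, 1.85, 0.87 and 0.49, and all 4 were called.

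The copper pumps changed less in roots. RAN1 had 529, 473 and 471 CPM in Columbia-0 roots and 412, 445 and 452 CPM in opt3-2 roots. Its groups did not overlap, and the log2 fold change of -0.17 (SE 0.08) did not pass the test (adjusted p = 0.171). HMA5, the copper exporter of roots, had 66.8, 58.1 and 57.1 CPM in the wild type and 67.3, 70.6 and 66.6 CPM in the mutant. Its ranges overlapped slightly, and its log2 fold change was 0.17 (SE 0.11, adjusted p = 0.324). PAA1 and PAA2, the chloroplast copper pumps, were at 17.2 to 21.6 CPM and 17.7 to 20.8 CPM in all roots, with log2 fold changes of -0.09 (SE 0.08, adjusted p = 0.507) and -0.06 (SE 0.09, adjusted p = 0.706). AT5G21940, which shares bases with PAA2, rose from 206 ± 18.7 to 311 ± 22.6 CPM in roots (log2 fold change 0.59, SE 0.13, adjusted p = 0.0096, edgeR). Its root level was thus many times that of PAA2, and 157 of its 1644 exon bases are shared. Its reads could be a large part of the root values of PAA2, and this was not tested. A p above the threshold does not show that these 4 genes were the same in both genotypes.

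**Figure D2:**
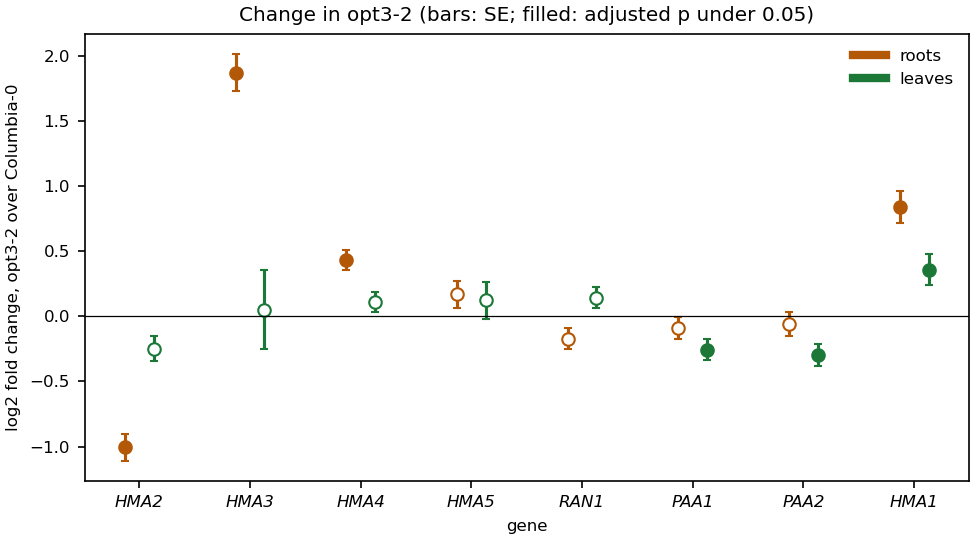
Log2 fold change of opt3-2 over Columbia-0 for each member in roots (orange) and leaves (green); bars are standard errors, and filled points have an adjusted p under 0.05. HMA2 and HMA3 in roots lie farthest from 0, at -1.01 and 1.87, while all leaf values lie between -0.30 and 0.36.

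In leaves 3 of the 8 members changed, 1 higher and 2 lower, where 28.1% of all genes were called (15.4% higher and 12.6% lower). The median log2 fold change of the members was 0.08, beside 0 over all genes, and in 4 of the 8 the genotypes did not overlap, as in 49.9% of all genes. The 3 called were the chloroplast pumps, of which HMA1 was higher while PAA1 and PAA2 were lower. The threshold alone set them apart from HMA2, which at a log2 fold change of -0.25 was close to PAA1 at -0.26 (adjusted p = 0.0816 and 0.0343, edgeR). PAA2, the thylakoid copper pump, had 121, 154 and 131 CPM in Columbia-0 leaves and 110.0, 114 and 106 CPM in opt3-2 leaves. All mutant leaves were lower, with Columbia-0 replicate 2 standing above the rest (log2 fold change -0.30, SE 0.09, adjusted p = 0.0242). Without opt3-2 leaf replicate 3 the adjusted p was 0.0581. AT5G21940 was at 73.7 ± 7.81 CPM in wild-type and 84.3 ± 16.0 CPM in mutant leaves (log2 fold change 0.20, adjusted p = 0.296), and its part in this result was not tested.

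PAA1, the envelope copper pump, had 67.2, 63.8 and 58.9 CPM in Columbia-0 leaves and 54.1, 53.1 and 51.6 CPM in opt3-2 leaves. Every mutant leaf was below every wild-type leaf (log2 fold change -0.26, SE 0.08, adjusted p = 0.0343). PAA1 was 28.6% ± 3.08 of PAA1 plus PAA2 per kilobase in Columbia-0 leaves and 29.0% ± 0.603 in opt3-2 leaves, a difference smaller than the spread (exact permutation p = 0.9), and 47.3% ± 0.604 and 46.6% ± 3.37 in roots (exact permutation p = 0.8). HMA1 had 82.5, 79.2 and 75.7 CPM in Columbia-0 leaves and 101.5, 99.7 and 102.9 CPM in opt3-2 leaves. The groups were well apart, yet the log2 fold change of 0.36 (SE 0.12) was close to the threshold (adjusted p = 0.0449, edgeR). That test takes a single spread per gene over all 4 groups. The wide opt3-2 root values of HMA1 (48.7, 70.4 and 73.4 CPM) therefore enter it. MYB73 was at 40.5 ± 3.59 CPM in wild-type and 24.0 ± 2.95 CPM in mutant leaves (log2 fold change -0.75, SE 0.28, adjusted p = 0.0669), and its part in this result was not tested.

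The leaf calls depended on single samples and settings. PAA2 was called in 22 of the 25 alternatives, PAA1 in 18 and HMA1 in 9, although their directions held in all 25. The adjusted p ran from 0.00293 to 0.145 for PAA2, from 0.00528 to 0.423 for PAA1 and from 4.45e-04 to 0.291 for HMA1. Leaving out Columbia-0 leaf replicate 1 or 2, or opt3-2 leaf replicate 2 or 3, ended the call of PAA1 (adjusted p up to 0.0754). HMA1 stayed called when any 1 of the opt3-2 root replicates was left out and lost its call when any 1 of the other 9 replicates was. Against the 1 Columbia-0 leaf replicate with runs 5 to 7, replicate 3, no member was called, at log2 fold changes of -0.27 for PAA2, -0.18 for PAA1 and 0.39 for HMA1. Against the 2 with runs 2 to 4 these were -0.32, -0.31 and 0.33, and only PAA1 of the 3 was called (adjusted p = 0.0422).

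HMA2 in leaves was 96.1, 93.5 and 81.5 CPM in the wild type and 76.6, 80.8 and 71.0 CPM in the mutant. The genotypes just missed overlapping, and the log2 fold change of -0.25 (SE 0.10) missed the threshold (adjusted p = 0.0816). It was called in 7 of the 25 alternatives (adjusted p 0.0234 to 0.657), among them those without Columbia-0 leaf replicate 3 (-0.36, adjusted p = 0.0234) or without Columbia-0 root replicate 1 (adjusted p = 0.0499). HMA4 was at 32.5, 35.7 and 38.4 CPM in Columbia-0 leaves and 35.5, 40.3 and 39.2 CPM in opt3-2 leaves, with much overlap (log2 fold change 0.11, SE 0.08, adjusted p = 0.336). RAN1 was 118 ± 9.64 CPM in wild-type leaves and 129.9 ± 6.38 CPM in mutant leaves (log2 fold change 0.14, SE 0.08, adjusted p = 0.206).

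HMA3 and HMA5 were close to absent from leaves, so their leaf comparisons rest on few reads. HMA3 had 10, 8 and 16 reads in Columbia-0 leaves and 11, 19 and 19 in opt3-2 leaves (log2 fold change 0.05, SE 0.30, adjusted p = 0.937). HMA5 had 46, 59 and 85 reads in Columbia-0 and 79, 99 and 108 in the deeper opt3-2 leaves (log2 fold change 0.12, SE 0.14, adjusted p = 0.576). A change of the size seen for HMA4 in roots would not have been detectable for HMA3 at this depth, given its standard error.

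The change in opt3-2 differed between organs for 2 of the 8 members, 1 positive and 1 negative, where 16.1% of all genes differed (8.45% positive and 7.69% negative). The difference (leaf log2 fold change minus root log2 fold change) was 0.76 for HMA2 (SE 0.14, adjusted p = 0.00396) and -1.82 for HMA3 (SE 0.34, adjusted p = 0.00455). The HMA2 difference was called in all 22 alternatives. That of HMA3 was called in 21, the exception being the highest-numbered run of each replicate used alone (-1.68, adjusted p = 0.165, with 2.62e-05 the lowest over the alternatives). For HMA4 (-0.32, adjusted p = 0.0641), HMA1 (-0.48, adjusted p = 0.0782) and RAN1 (0.31, adjusted p = 0.0784) the difference came near the threshold without passing it. Without opt3-2 root replicate 1, the lowest of its group, the HMA1 difference was -0.65 (adjusted p = 2.83e-04, the lowest of 22 alternatives that reached 0.162). It also passed with upper-quartile scaling (adjusted p = 0.047), DESeq2 (0.0341) and the middle run alone (0.0277), 4 of the 22 in all. The HMA4 difference passed in 6 of the 22, which were RLE scaling (adjusted p = 0.0354), no filter (0.0435), DESeq2 (0.00889), the highest run alone (0.0219), and the fits without Columbia-0 leaf replicate 1 (adjusted p = 0.0211) or opt3-2 leaf replicate 2 (adjusted p = 0.0428), with 0.183 the highest of the 22. PAA2 (-0.24), PAA1 (-0.17) and HMA5 (-0.05) did not pass either.

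Every member's level differed between the organs. In Columbia-0 all 8 members differed between leaf and root, where 77.4% of all genes did (36.2% higher and 41.2% lower in leaves), and in opt3-2 all 8 did, where 78.8% of all genes did (38.4% higher and 40.4% lower). The same 4 were higher in leaves and the same 4 in roots in both genotypes, with no overlap of replicates, as in 81.3% of all genes in Columbia-0 and 80.6% in opt3-2. The chloroplast pumps and HMA2 were the leaf members. In Columbia-0 PAA2 was 6.94-fold higher in leaves, PAA1 3.09-fold, HMA2 2.90-fold and HMA1 2.21-fold.

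HMA3, HMA5, HMA4 and RAN1 were the root members. In Columbia-0 HMA3 was 25.8-fold lower in leaves, HMA5 22.2-fold, HMA4 4.83-fold and RAN1 4.18-fold. In opt3-2 the leaf deficit of HMA3 was 91.0-fold, and the leaf excess of HMA2 was 4.91-fold. The directions of all 8 held in every alternative, including upper-quartile scaling, which moved the median log2 fold change over all genes by -0.19 in Columbia-0 and -0.20 in opt3-2.

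Per kilobase of exon, which lets members be compared, RAN1 led the family in roots. It stood at 135 ± 9.09 CPM per kilobase in Columbia-0 roots (SD, n = 3), followed by HMA4 at 40.4 ± 1.76, HMA5 at 19.0 ± 1.68, HMA1 at 12.5 ± 0.283 and HMA2 at 9.72 ± 1.16. PAA2 at 5.80 ± 0.400, PAA1 at 5.20 ± 0.370 and HMA3 at 4.86 ± 0.613 came last, and these 3 overlapped from each to the next.

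In opt3-2 roots the order below the top pair was different. RAN1 was at 120.1 ± 5.86 CPM per kilobase and HMA4 at 54.5 ± 2.84, then came HMA1 at 22.4 ± 4.70, HMA5 at 21.4 ± 0.673 and HMA3 at 17.8 ± 2.32. PAA2 at 5.57 ± 0.262, PAA1 at 4.88 ± 0.489 and HMA2 at 4.84 ± 0.409 were lowest. HMA1 overlapped HMA5, PAA2 overlapped PAA1 and PAA1 overlapped HMA2. HMA3 thus stood last in wild-type roots and the fifth in mutant roots, and HMA2 moved from the fifth place to the last. RAN1 made up 58.1% ± 0.946 of the family's summed level in wild-type roots and 47.8% ± 1.08 in mutant roots. The sum itself was 233 ± 13.2 and 251 ± 15.1 CPM per kilobase, overlapping between genotypes.

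Leaves had a flatter order led by other members. In Columbia-0 leaves PAA2 was at 40.3 ± 4.94 CPM per kilobase, RAN1 at 32.4 ± 2.65, HMA2 at 28.2 ± 2.43, HMA1 at 27.6 ± 1.19, PAA1 at 16.0 ± 1.06 and HMA4 at 8.35 ± 0.693, and HMA2 and HMA1 overlapped. In opt3-2 leaves RAN1 was at 35.7 ± 1.76, HMA1 at 35.3 ± 0.553, PAA2 at 32.8 ± 1.19, HMA2 at 23.8 ± 1.53, PAA1 at 13.4 ± 0.311 and HMA4 at 9.0 ± 0.588, and RAN1 and HMA1 overlapped. HMA5 at 0.850 and 0.933 and HMA3 at 0.185 and 0.194 CPM per kilobase were lowest in both genotypes. The leaf sums were 154 ± 4.23 in Columbia-0 and 151 ± 1.46 CPM per kilobase in opt3-2. With coding length in place of exon length HMA3, whose annotated coding sequence is 1629 of 2629 exon bases, moved up to the sixth place in Columbia-0 roots and the third in opt3-2 roots.

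**Figure D3:**
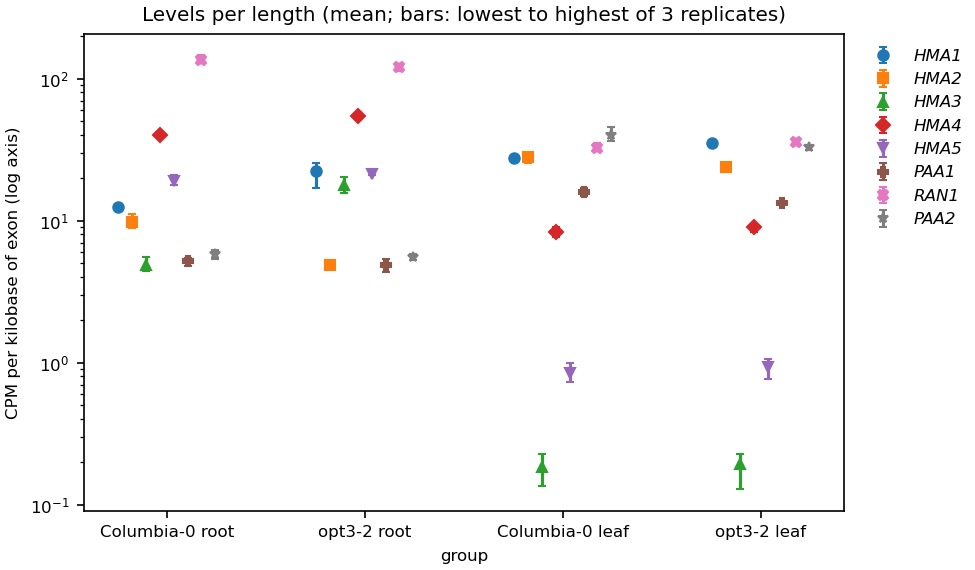
Level of each member in CPM per kilobase of exon on a log axis, by group; points are means and bars run from the lowest to the highest of 3 replicates. RAN1 leads in roots at 135 and 120.1 CPM per kilobase, and HMA3 and HMA5 stand below 1.07 CPM per kilobase in every leaf replicate.

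Because HMA2, HMA3 and HMA4 moved differently in mutant roots, the 300 bases before the annotated start of each are shown, read on the gene's strand from TAIR10.1 (chr4:14725312-14725611, minus; chr4:14733629-14733928, minus; chr2:8278489-8278788, plus). Capitals mark GTAC, the core of the element bound by the copper regulator SPL7.
HMA2: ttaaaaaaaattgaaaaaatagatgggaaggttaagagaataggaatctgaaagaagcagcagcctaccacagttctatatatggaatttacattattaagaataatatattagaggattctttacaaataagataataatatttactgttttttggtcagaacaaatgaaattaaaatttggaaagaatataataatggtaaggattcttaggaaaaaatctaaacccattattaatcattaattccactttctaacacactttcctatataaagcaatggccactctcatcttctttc
HMA3: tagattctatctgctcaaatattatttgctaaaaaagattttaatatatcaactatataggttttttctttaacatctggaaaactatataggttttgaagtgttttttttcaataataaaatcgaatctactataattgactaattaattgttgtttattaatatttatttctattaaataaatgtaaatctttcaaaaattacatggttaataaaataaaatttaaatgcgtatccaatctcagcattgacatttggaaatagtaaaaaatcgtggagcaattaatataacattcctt
HMA4: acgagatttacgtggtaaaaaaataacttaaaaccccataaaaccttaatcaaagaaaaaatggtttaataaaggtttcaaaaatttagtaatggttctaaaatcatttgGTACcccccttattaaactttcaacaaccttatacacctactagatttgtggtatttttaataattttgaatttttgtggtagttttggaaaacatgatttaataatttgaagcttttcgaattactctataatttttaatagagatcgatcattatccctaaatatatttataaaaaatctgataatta

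The zinc deficiency element TGTCGACA was in 0 of the 8 members' windows, where 0.329% of 26709 such windows held it. GTAC was in the windows of HMA4, once at -190, PAA1 and RAN1, where 39.8% of all windows held it. The G-box CACGTG, a site for basic helix-loop-helix and other factors, was in that of PAA2, where 7.18% of all windows held it. All 3 motifs read the same on both strands and none contains another. These matches describe the letters in the windows only.

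The genes beside HMA2 and HMA3 were read in the same way. AT4G30130, which starts 826 bp from HMA3 on the other strand, rose in opt3-2 roots from 5.06 ± 0.934 to 9.29 ± 2.08 CPM (log2 fold change 0.88, SE 0.17, adjusted p = 0.0055). AT4G30100, which abuts the end of HMA2 on the other strand, was at 101 ± 0.799 CPM in wild-type roots and 102 ± 24.1 CPM in mutant roots (log2 fold change 0.00, SE 0.13, adjusted p = 0.995). Genes beside other members were called in roots too. AT4G37280 beside HMA1 had a log2 fold change of 0.21 (adjusted p = 0.0256, edgeR) and KUP5 beside PAA1 -0.27 (adjusted p = 0.037). RHS8 beside HMA5 (-0.45, adjusted p = 0.132) and DHS2 beside PAA1 (0.15, adjusted p = 0.109) were not called.

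Genes that work with the zinc pumps were described from 2 lists. Of 12 genes of the zinc deficiency response, the regulators BZIP19 and BZIP23 and their known targets, 11 were tested, and 4 were higher and 0 lower in opt3-2 roots (8.28% and 7.28% of all genes), with a median log2 fold change of 0.26. NAS2, a nicotianamine synthase, had a log2 fold change of 8.11 (0.991 to 276 CPM), the zinc transporter ZIP9 one of 3.16, NAS4 one of 1.75 and ZIP3 one of 1.02. In leaves 1 was higher, ZIP5 at 1.16, and 1 lower, ZIP1 at -0.38 (15.4% and 12.6% of all genes), with a median of 0.12.

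Of 15 other genes of zinc and cadmium sequestration and efflux 14 were tested, and 7 were higher and 0 lower in roots, where 8.28% of all genes were higher and 7.28% lower, with a median log2 fold change of 0.47. MTP3, a zinc transporter that fills the vacuole, had a log2 fold change of 4.05 (19.7 to 327 CPM). NRAMP3, which releases metals from the vacuole, had 1.60, the efflux protein PCR2 0.82, and ZIF1, which brings nicotianamine into the vacuole, 0.68. In leaves 6 were higher, among them PCR2 at 1.37, ABCG36 at 0.55 and ABCC1 at 0.51, and 1 was lower, ZIF1 at -0.62 (15.4% and 12.6% of all genes), with a median of 0.36.

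The copper pumps were set beside 3 lists. Of 14 genes of copper uptake, its regulation and copper chaperones 13 were tested, and 2 were higher and 2 lower in roots (8.28% and 7.28% of all genes), with a median log2 fold change of 0.09. CITF1, a regulator of copper uptake, had a log2 fold change of -5.72 and the chaperone CCH one of -1.49, while CCS, the chaperone of copper superoxide dismutases, had 1.34 and COX11 0.38. In leaves 2 were higher and 3 lower (15.4% and 12.6% of all genes), with CITF1 at -2.58, the uptake protein COPT2 at -2.02, CCS at 1.35 and CCH at -1.13 and a median of 0.03.

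Of 6 proteins that accept copper, or replace those that do, 2 were higher and 1 lower in each organ, where 15.6% of all genes changed in roots and 28.1% in leaves, with median log2 fold changes of 0.24 in roots and -0.07 in leaves. The copper and zinc superoxide dismutases CSD1 and CSD2, the latter in the chloroplast that PAA1 supplies, had log2 fold changes of 2.56 and 1.29 in roots and 1.39 and 1.72 in leaves. FSD1, the iron superoxide dismutase, had -2.29 in roots and -2.01 in leaves. Of 9 genes of ethylene perception and signalling, which depends on RAN1, 2 were higher in roots (ERS2 at 0.48 and CTR1 at 0.40). Another 2 were lower (EIN2 at -0.31 and EIN4 at -0.23), and the median was 0.05. Of all genes 8.28% were higher and 7.28% lower in roots. In leaves 0 of the 9 were called by edgeR, where 28.1% of all genes were. There 0 had an unadjusted p under 0.05, with EIN3 and EIN2 both at 0.10 and a median of 0.10.

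**Figure D4:**
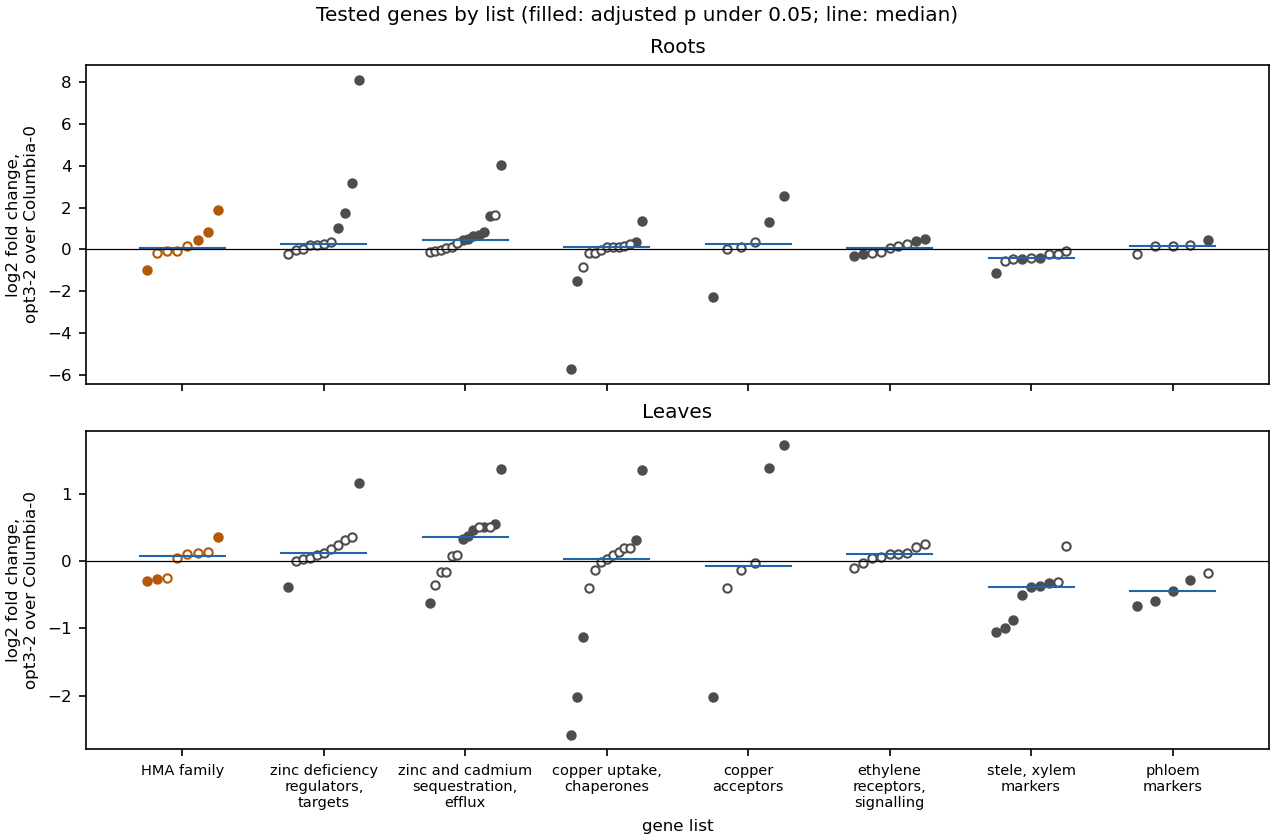
Log2 fold change of opt3-2 over Columbia-0 for each tested gene of the family and of 7 lists, in roots (top) and leaves (bottom, another scale); filled points have an adjusted p under 0.05 and the line is the median. In roots NAS2 at 8.11, MTP3 at 4.05 and CITF1 at -5.72 lie beyond every family member, and the stele and xylem markers have a median of -0.43.

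Markers of vascular and other tissues were read beside the pumps. In roots 3 of 9 stele and xylem markers were lower and 0 higher (SKOR at -1.11, AHK4 at -0.44 and XCP2 at -0.41), where 7.28% of all genes were lower and 8.28% higher, with a median log2 fold change of -0.43. In wild-type roots they summed to 1406 to 1566 CPM, and in mutant roots to 1108 to 1209 CPM. HMA2 fell along with them and HMA4 rose against them, and their part in these results was not tested. In leaves 7 of the 9 were lower and 0 higher, where 12.6% of all genes were lower and 15.4% higher, with IRX3 at -1.05, IRX1 at -0.99, IRX5 at -0.88 and XCP2 at -0.51, and the sum was 233 to 252 CPM in wild-type and 147 to 185 CPM in mutant leaves.

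Of 5 phloem markers 1 was higher in roots (SUC2 at 0.47, with AHA3 at 0.22, adjusted p = 0.103), where 8.28% of all genes were, and 4 were lower in leaves, where 12.6% were (SUC2 at -0.66, SEOR1 at -0.60, FTIP1 at -0.45 and AHA3 at -0.28). Their sum in roots was 205 to 227 CPM for the wild type against 239 to 259 CPM for the mutant, and in leaves 797 to 906 CPM against 590.2 to 663 CPM. None of the 11 photosynthesis markers was called in either organ by edgeR, with 0 at an unadjusted p under 0.05 in either. In leaves they summed to 86670 to 92469 CPM in the wild type and 74947 to 77543 CPM in opt3-2, lower in the mutant as PAA1 and PAA2 were and HMA1 was not, and its part in those results was not tested. In roots 0 of 7 endodermis markers and 1 of 6 root hair markers (RSL4 at 1.42) were called, where 15.6% of all genes were. Of either kind 0 were called in leaves, where 28.1% of all genes were. In leaves CASP5 was at 0 in both genotypes, and RSL4 and EXPA7 were at 0 in Columbia-0.

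For each member that changed in an organ, the genes with the most alike profile were found by Pearson correlation of log2 CPM over the 12 replicates, among 17434 genes. These correlations are a description, since the replicates fall into roots and leaves and share their libraries. HMA3 was followed most closely by AT5G22140 (r = 0.997), MIZ1 (0.996) and iPGAM1 (0.995), which had root log2 fold changes of 1.22, 1.75 and 0.74. HMA4 was followed by PAP22 (0.998), IREG2 (0.998) and BBX21 (0.997), at 0.74, 2.18 and 0.41 in roots. IREG2 is a vacuolar transporter of nickel and other metals.

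HMA2 was followed by PIP5K2 (r = 0.987), AT14A (0.987) and AT4G13550 (0.986), which had root log2 fold changes of -0.44, -1.32 and -1.04. HMA1 was followed by ORG1 (0.989), ACO1 (0.980) and AT1G21680 (0.977), at 0.74, 0.30 and 1.18 in roots and 0.26, 0.05 and 0.42 in leaves. PAA1 was followed by AT1G21060, GAD2 and CaS (each r = 0.999), at -0.36, -0.18 and -1.06 in leaves, of which only CaS passed the test (adjusted p = 0.0021). PAA2 was followed by SCPL13, AT5G14460 and AT3G54360 (0.998 to 0.999), at -0.43, -0.15 and -0.11 in leaves, of which only SCPL13 passed (adjusted p = 0.0012).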

How the data were processed

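RNA was sequenced from 12 biological replicates in 4 groups. Per the submitters' processing notes the tools were TopHat2 and edgeR and the build TAIR10, with no versions. No source used here names the counting program, the annotation release or the strand setting. Raw counts per gene, whole numbers that the authors did not normalize, make up the deposited table. It has 72 columns: 36 belong to the samples described here, with S in a heading read as leaf, and the other 36 were not used.

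The 3 runs of a replicate were summed. Sums were tested with the quasi-likelihood F test of edgeR (version 4.0.16, limma 3.58.1, R 4.3.3) after TMM scaling, on the 21692 genes that filterByExpr kept. A single model of 4 group means had 8 residual degrees of freedom and a common biological coefficient of variation of 0.137. Each gene's spread was estimated over all 4 groups together. P-values were adjusted by Benjamini-Hochberg over all genes of a comparison, and those under 0.05 are called. Standard errors are the log2 fold change divided by the root of F. The procedure was tested on simulated data. CPM uses TMM library sizes, and levels per kilobase divide it by the annotated exon length. Depth was 23981444 to 37685493 counted reads per replicate, and intervals were not made from them.

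Of the identifiers, 28009 of 28775 matched the RefSeq annotation TAIR10.1, the source of all positions and sequences. Named were OPT3, all 8 members and genes overlapping or beside them, the latter chosen after their values were seen. Of each list up to 4 called genes were named by size of change, or the most abundant where fewer than 2 were called. For each called member the 3 most alike genes of mean log2 CPM of at least 1 were named. The members and lists were chosen with earlier results of these data known.

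Whether replicate numbers pair the samples was checked by correlating same-numbered deviations from group means. Root replicates of the genotypes gave 0.466, 0.157 and 0.460, all above 0.1, so the numbers were taken to pair roots. The check is weak, since Columbia-0 root replicate 1 and opt3-2 root replicate 2 gave 0.182. The main model and the permutation tests of shares did not use the pairing, and only the replicate block did. Leaves gave -0.07, -0.04 and 0.007. Alternatives were RLE and upper-quartile factors, DESeq2 1.42.0, limma voom, other filters, the replicate block, fewer samples, single runs, run sets, leaving out each replicate, and coding length.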

Additional observations from a re-analysis of the deposited data

Results flagged for a closer look

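For 2 members the effect of opt3-2 differed between leaf and root by a test of the difference itself (edgeR, 12 replicates). HMA2 had a leaf minus root difference of 0.76 on the log2 scale (SE 0.14, adjusted p = 0.00396), from a log2 fold change of -1.01 in roots and -0.25 in leaves. It was lower in 3 of 3 mutant replicates in each organ than in any wild-type replicate of that organ.

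HMA3 had a difference of -1.82 (SE 0.34, adjusted p = 0.00455), from 1.87 in roots and 0.05 in leaves. Its leaf values rest on 8 to 19 reads per replicate, and the adjusted p was 0.165 with the highest-numbered run of each replicate alone. No explanation was tested for either gene.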

How the results depend on the processing

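Of the members' log2 fold changes under all alternatives, 882 kept direction and side of the threshold, 29 lost the call, 17 gained it and 16 changed sign. In roots 198 of them held and 2 lost the call. All of the leaf against root changes held. All sign changes were in values that did not pass the test.

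With DESeq2, 4 members differed between organs in their response, beside 2. Genes called in roots numbered 1973 with only the root samples, 2243 with the highest run alone, 716 against Columbia-0 runs 2 to 4 (2 members called) and 2045 against runs 5 to 7, beside 3377. In leaves 1739 genes and 0 members were called against runs 5 to 7, beside 6090 and 3, with fewer samples by construction. For the difference between organs 2315, 2223 and 2278 genes were called with the lowest, middle and highest run alone, beside 3503, with fewer reads by construction.

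Leave-one-out counts ran from 2074 to 4231 genes in roots, where all 4 members stayed called, from 4138 to 7189 genes and 0 to 3 members in leaves, and from 2503 to 4540 genes and 2 to 3 members for the difference. The lowest root counts were 2074 without Columbia-0 root replicate 2 and 2237 without replicate 1.

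In leaves HMA3 turned to -0.014 and -0.065 with the lowest and middle run, and to -0.26 against Columbia-0 runs 5 to 7. HMA5 turned to -0.069 with the middle run and -0.13 against runs 5 to 7, HMA4 to -0.043 with the highest run and -0.029 against runs 5 to 7, and RAN1 to -0.013 against runs 5 to 7. The HMA5 difference was 0.022 with the lowest run. Leaving out single replicates gave -0.16 to 0.24 for HMA3 and -0.016 to 0.22 for HMA5 in leaves, and -0.20 to 0.035 for the HMA5 difference. The causes were not tested.

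With coding length, the family's summed level was 280.5, 308, 187 and 183 CPM per kilobase in Columbia-0 root, opt3-2 root, Columbia-0 leaf and opt3-2 leaf, since coding lengths are shorter. HMA2's share changes ran from -11.97 to -10.1 percentage points in roots and -6.19 to -3.25 in leaves over single replicates left out, and those of PAA1 from -2.46 to 0.846 and -0.857 to 2.12. The replicate block changed no member's call, with HMA2 in roots at -1.003 (adjusted p = 1.92e-04) and 3563 genes called. Depth limits HMA3 and HMA5 in leaves.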
